A study of Homo sapiens with 33 samples.

Results

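The genes described here are 10 feedback inhibitors and output genes of the ERK pathway, DUSP4, DUSP5, DUSP6, SPRY2, SPRY4, SPRED1, SPRED2, ETV4, ETV5 and PHLDA1. They were chosen by name, with earlier results of these data known. All 10 were found in each of 3 tables of knockout against control that held 14332, 13310 and 14160 entries. Every member had a mean normalized count far above 10, with 1286 for DUSP5 in A-375 as the lowest, so no member rests on sparse counts.

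The ERK pathway runs from receptors through RAS, RAF and MEK to the kinase ERK, which turns on growth genes. Among the genes it turns on are its own brakes: DUSP phosphatases that take phosphate off ERK, and Sprouty and SPRED proteins that restrain RAS and RAF. The transcripts of these brakes, and those of ETV4, ETV5 and PHLDA1, are therefore used as a readout of ERK output in melanoma and other cancers.

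RNA was sequenced in 33 libraries of 2 human cancer lines. These were the melanoma line A-375, which carries an activating BRAF mutation, and the bladder cancer line UM-UC-3. GABPB1, the edited gene, encodes the subunit of GABP that activates transcription, and its partner GABPA is the ETS protein that binds DNA. The edits were made with CRISPR/Cas9 plasmids and cells sorted by GFP were grown into clonal lines. The total knockout joined clones lacking exons 2 to 9 (B1KO, 4 libraries in A-375 and 4 in UM-UC-3) with clones lacking exon 2 (B1X2KO, 8 and 5 libraries). The long-form knockout (B1LKO, 2 libraries, A-375 only) removed exon 9, which the long splice form uses. Controls in the series were unedited parental cells (2 libraries of A-375, 1 of UM-UC-3) and clones cut at the ROSA26 locus (4 and 3 libraries). The series' design text counts 2 unedited controls where the sample labels give 3, and the labels were followed, also in the levels worked out below. The tables carry the name of the parental cells as controls. Whether ROSA26 clones also entered a fit is a point not given in the sources used here, so for UM-UC-3 the controls may be 1 library. If parental cells were the only controls, loss of GABPB1 cannot be told apart from editing, GFP sorting and growth into clones. A change in the knockout is meant below as a difference from these controls. The 12 total-knockout libraries of A-375 came from 9 clones and the 9 of UM-UC-3 from 8, so p-values measure the spread between libraries that are in part repeats of a clone. Only fitted values per gene were used, which means that depth per library is unknown and the spread between replicates is seen only as each standard error (SE).

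The edit was visible in all 3 comparisons. The entry GABPB1L had log2 changes of -10.60 ± 0.70 (SE) in the A-375 total knockout, -12.60 ± 0.71 in UM-UC-3 and -12.79 ± 1.47 in the A-375 long-form knockout (authors' deposited tables). Names of the short form ran differently between the A-375 tables: the entry GABPB1S changed by -9.81 ± 0.72 in the total knockout and by 13.95 ± 1.04 in the long-form knockout, where GABPB1S-DEX2 changed by -12.00 ± 1.48, in the authors' deposited tables. Entries named DEX2 ran the other way in the total knockouts: GABPB1L-DEX2 and GABPB1S-DEX2 changed by 13.61 ± 1.96 and 12.36 ± 1.88 in A-375 and by 11.82 ± 1.46 and 10.15 ± 1.62 in UM-UC-3 in the authors' deposited tables. The mean normalized count of GABPB1L-DEX2 in A-375 was 615, against 130 for GABPB1L, in the authors' deposited table. Because 1 group lies near 0, these sizes have no fold meaning. Of the markers fixed for each lineage, SOX10 had a mean normalized count of 14704 in the A-375 total-knockout table, while the pigment gene PMEL had 20.1 and TYR was not listed in the authors' deposited tables. Of 9 urothelial markers, 3 were listed in UM-UC-3 (UPK1A, GATA3 and PPARG, at means of 35.3, 194.5 and 990.2 in the authors' deposited table), and the basal keratin KRT5 and the uroplakins UPK1B, UPK2 and UPK3A were not. All 3 rose in the UM-UC-3 knockout, by 1.32 ± 0.48, 0.58 ± 0.24 and 1.15 ± 0.32 on the log2 scale in the authors' deposited table. Of 8 melanocytic markers, 6 were listed in UM-UC-3 with a summed mean of 716, and MITF (1.47 ± 0.30) and DCT (2.20 ± 0.54) rose on the log2 scale in the authors' deposited table. The part of these marker changes in the members' results was not tested. Of 4 blood markers, 0 were listed in UM-UC-3 and 1, LYZ, in the A-375 tables.

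SPRY4 is shown first in sequence because it was the member that passed the test in both cell lines, in opposite directions. Its window is the 250 bases before the RefSeq start (GRCh38.p14, chr5:142324248-142324497, minus strand), which lie inside the gene as annotated in GENCODE release 29. Capitals mark the core GGAA, or TTCC on the other strand, that ETS proteins such as GABPA, ETV4 and ETV5 recognise.
SPRY4: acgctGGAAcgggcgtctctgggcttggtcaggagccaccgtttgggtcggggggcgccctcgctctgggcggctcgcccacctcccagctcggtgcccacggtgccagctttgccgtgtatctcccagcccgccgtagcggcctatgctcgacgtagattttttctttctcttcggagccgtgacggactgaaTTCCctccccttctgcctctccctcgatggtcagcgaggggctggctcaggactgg
Among the 6 members whose windows were searched, those of DUSP6 and PHLDA1 held the longer letters CGGAAG on 1 of the strands. The matches, in capitals here, start 62 and 47 bases before the RefSeq start. The stretches lie at chr12:89352546-89352575 and chr12:76031806-76031835, both on the minus strand of GRCh38.p14. All 250 bases of either window lie in annotated UTR (GENCODE release 29), so both matches fall inside annotated transcripts.
DUSP6: cggcaacagcccCTTCCGcagcacgctcat
PHLDA1: ggggaacgagcgCGGAAGcaagtgggcggc

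RefSeq promoter windows were searched for 6 of the 10 members, 9 windows in all (DUSP6, SPRY2 with 3 starts, SPRY4, SPRED1, SPRED2 with 2 starts and PHLDA1). Windows on chromosome 8, which holds DUSP4, were left out for the members but kept among those of all genes. No window was found for DUSP5, ETV4 and ETV5. The letters before the starts of DUSP4, DUSP5, ETV4 and ETV5 are therefore not described. Searched on both strands over the 250 bases before each start, GGAA was in 9 of 9 windows and in 92.7% of 35116 windows of all genes. The letters CGGAAG, which contain GGAA, were in 2 of 9 and in 16.5% of all windows. The fuller GABP-type letters CCGGAAGT were in 0 of 9 and in 3.42% of all windows. The window of SPRED1 also lay wholly in annotated UTR, 38 bases of a SPRED2 window did, and the other windows held 0 such bases. Holding 0 such bases does not place a window upstream of the gene. The SPRY4 window and some windows of SPRY2 and SPRED2 lay inside the annotated gene. A match is a description of letters, and a window without one says nothing about binding. The window of DUSP6, which did not pass the test in either line, and that of PHLDA1, which rose in UM-UC-3, both held CGGAAG.

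In UM-UC-3, 5 of the 10 genes were called higher in the total knockout and 0 lower. Those 5 were DUSP4, DUSP5, SPRY4, SPRED1 and PHLDA1, with folds of 1.63 to 2.73. All folds and intervals given for single members were computed from the log2 changes and SEs of the authors' deposited tables. By the authors' DESeq2 test 31.1% of all 13310 genes passed an adjusted p of 0.05 in this line, and 17.0% passed as higher. The members' median log2 change was 0.69, against 0.03 for all genes, and 8 of 10 changes were above 0. In A-375, 1 of the 10, SPRY4, was called lower in the total knockout and 0 higher. Over all 14330 genes of that line 10.8% passed and 5.74% passed as lower. The members' median was -0.12 there, against -0.05 for all genes, so in A-375 the share called was near the background. The A-375 split over all genes was 726 higher and 823 lower, and 906 and 647 after centring on the median. The long-form knockout called 0 of 10 members with DESeq2 (0 also at an unadjusted p under 0.05), where 0.904% of 14156 genes passed.

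**Figure D1:**
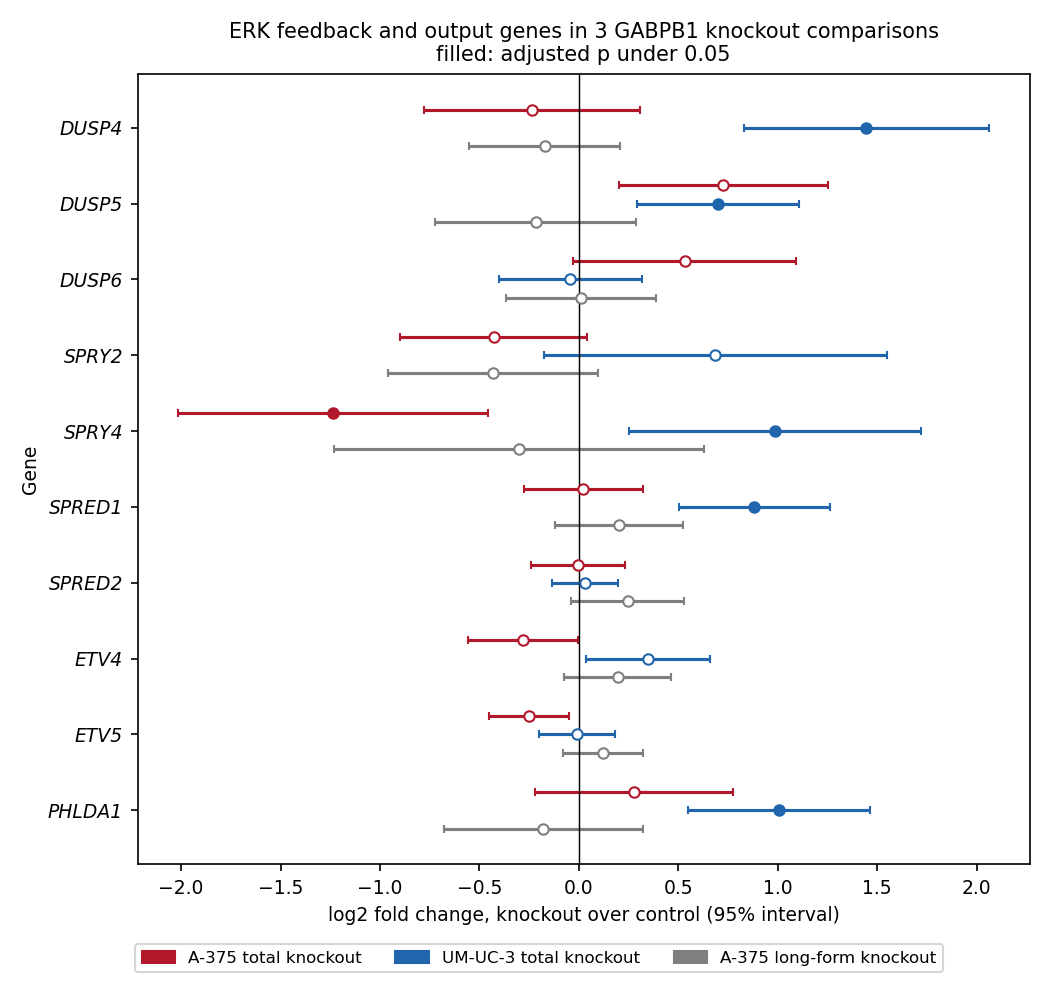
Log2 fold change of knockout over control on the x axis for each of the 10 genes on the y axis, in the A-375 total (red), UM-UC-3 total (blue) and A-375 long-form (grey) knockout. Points are the authors' fitted values, bars are 95% normal intervals, and filled points passed an adjusted p of 0.05: 5 in UM-UC-3, 1 in A-375 and 0 for the long form.

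The DUSP genes encode dual-specificity phosphatases. DUSP4 (chromosome 8, 29333064 to 29350668, hg38) encodes a nuclear phosphatase of ERK and related kinases. In UM-UC-3 it was 2.73 times its control level (95% interval 1.78 to 4.18; log2 1.45 ± 0.31, SE, adjusted p 6.87e-05, authors' deposited table). In A-375 its fold was 0.850 (0.584 to 1.24; adjusted p 0.634, authors' deposited table), and in the long-form knockout 0.888 (0.682 to 1.16). Both A-375 intervals span 1 and end below the lower bound in UM-UC-3. DUSP5 (chromosome 10, 110497838 to 110511544), a nuclear phosphatase that acts on ERK, rose 1.63-fold in UM-UC-3 (1.22 to 2.16; adjusted p 0.00469, authors' deposited table). In A-375 its fold was close to that, 1.65 (1.15 to 2.38), with an adjusted p of 0.0573 in the authors' deposited table. Centring the A-375 table on its median moved DUSP5 past the threshold (adjusted p 0.0390), as did the deposited q-value of 0.0322. In the long-form knockout DUSP5 had a fold of 0.860 (0.606 to 1.22). DUSP6 (chromosome 12, 89347232 to 89353271), a cytoplasmic phosphatase of ERK, passed the test in no comparison. Its folds were 1.45 in A-375 (0.981 to 2.13), 0.971 in UM-UC-3 (0.757 to 1.24) and 1.01 in the long-form knockout (0.777 to 1.31). The intervals leave room for a 2-fold rise of DUSP6 in A-375 but not in UM-UC-3.

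Sprouty and SPRED genes encode related inhibitors upstream of ERK. SPRY4 (chromosome 5, 142310427 to 142326455) changed by -1.24 ± 0.40 on the log2 scale in A-375, to 0.425 of control (0.248 to 0.729; adjusted p 0.0247, authors' deposited table). In UM-UC-3 it rose 1.98-fold (1.19 to 3.30; adjusted p 0.0307, authors' deposited table). The 2 intervals lie on opposite sides of 1, and neither call passed an adjusted p of 0.01. In the long-form knockout its fold was 0.813 with a wide interval, 0.427 to 1.55. SPRY2 (chromosome 13, 80335976 to 80340951) had the same signs without passing: 0.743 in A-375 (0.536 to 1.03; adjusted p 0.248) and 1.61 in UM-UC-3 (0.885 to 2.93; adjusted p 0.232) in the authors' deposited tables. Its fold in the long-form knockout was 0.742 (0.515 to 1.07). SPRY2 and SPRY4 had the largest standard errors of the members in UM-UC-3, 0.44 and 0.37, above those of 99.0% and 98.2% of 7683 genes whose mean reached 1000 in the authors' deposited table. SPRED1 (chromosome 15, 38252326 to 38357249), which brings the RAS inhibitor neurofibromin to the membrane, rose 1.84-fold in UM-UC-3 (1.42 to 2.40; adjusted p 8.45e-05, authors' deposited table). In A-375 its fold was 1.02 (0.825 to 1.25), and in the long-form knockout 1.15 (0.921 to 1.44). SPRED2 (chromosome 2, 65310851 to 65432637), its paralog, had folds of 0.997 (0.847 to 1.17) in A-375 and 1.02 (0.910 to 1.15) in UM-UC-3. The long-form value of SPRED2 was 1.19 (0.974 to 1.44). SPRED2 had the narrowest interval in UM-UC-3.

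ETV4 and ETV5 encode ETS factors of the PEA3 group, and PHLDA1 a pleckstrin-homology-like protein induced by growth signals. ETV4 (chromosome 17, 43527844 to 43579620) had a fold of 0.824 in A-375 (0.680 to 0.998; adjusted p 0.191) and of 1.27 in UM-UC-3 (1.03 to 1.58; adjusted p 0.0797) in the authors' deposited tables. Neither passed, and in the long-form knockout the fold was 1.15 (0.951 to 1.38). ETV4 overlaps DHX8 on the other strand in the annotation, and use of strand in the counting is a point not given in the sources used here. DHX8 itself changed by -0.38 ± 0.10 on the log2 scale in A-375 (adjusted p 0.00652) and by 0.09 ± 0.10 in UM-UC-3 in the authors' deposited tables. ETV5 (chromosome 3, 186046308 to 186110318) had the smallest standard error of the members in A-375, 0.10, with a fold of 0.841 (0.730 to 0.967; adjusted p 0.0955, authors' deposited table). In UM-UC-3 its fold was 0.993 (0.869 to 1.13) and in the long-form knockout 1.09 (0.946 to 1.25). DGKG, which overlaps ETV5 on the same strand in the annotation, changed by 1.41 ± 0.34 on the log2 scale in A-375 in the authors' deposited table. PHLDA1 (chromosome 12, 76025447 to 76033932) rose 2.01-fold in UM-UC-3 (1.46 to 2.76; adjusted p 0.000208, authors' deposited table). In A-375 PHLDA1 had a fold of 1.21 (0.859 to 1.71), and in the long-form knockout 0.883 (0.624 to 1.25).

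The A-375 total and long-form comparisons may share control libraries, so their values are set side by side without a test. The members' log2 changes ran from -1.24 to 0.73 in the total knockout and from -0.43 to 0.25 in the long-form knockout in the authors' deposited tables. The long-form values rest on 2 knockout libraries, yet their standard errors, 0.10 to 0.47, covered much the same range as those of the total knockout, 0.10 to 0.40.

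Whether the response differed between the lines was tested as the difference of the 2 total-knockout log2 changes, which share no library. The signed log2 change was higher in UM-UC-3 than in A-375 for 4 of 10 members and lower for 0. Over all 12640 genes, 10.4% differed and 6.32% were higher in UM-UC-3. The sign matters here, since the change of SPRY4 was larger in size in A-375 (-1.24, against 0.99 in UM-UC-3). SPRY4 had the widest gap, 2.22 ± 0.55 on the log2 scale (SE; 95% interval 1.15 to 3.29, adjusted p 0.00235). DUSP4 followed with 1.68 ± 0.42 (0.86 to 2.50, adjusted p 0.00281). SPRED1 differed by 0.86 ± 0.25 (0.37 to 1.35, adjusted p 0.0115). ETV4, which passed in neither line alone, differed by 0.63 ± 0.21 (0.21 to 1.04, adjusted p 0.0368), a call lost after centring both tables (0.0766). Among members not called, SPRY2 differed by 1.11 ± 0.50 (adjusted p 0.133) and PHLDA1 by 0.73 ± 0.35 (adjusted p 0.158). The interval for DUSP5, -0.69 to 0.64, and that for SPRED2, -0.25 to 0.32, lay around 0. DUSP6 was the member with the lowest difference, -0.57 ± 0.34 (-1.24 to 0.09). ETV5 differed by 0.24 ± 0.14 (-0.04 to 0.52). The members' median difference was 0.68, against 0.09 for all genes.

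**Figure D2:**
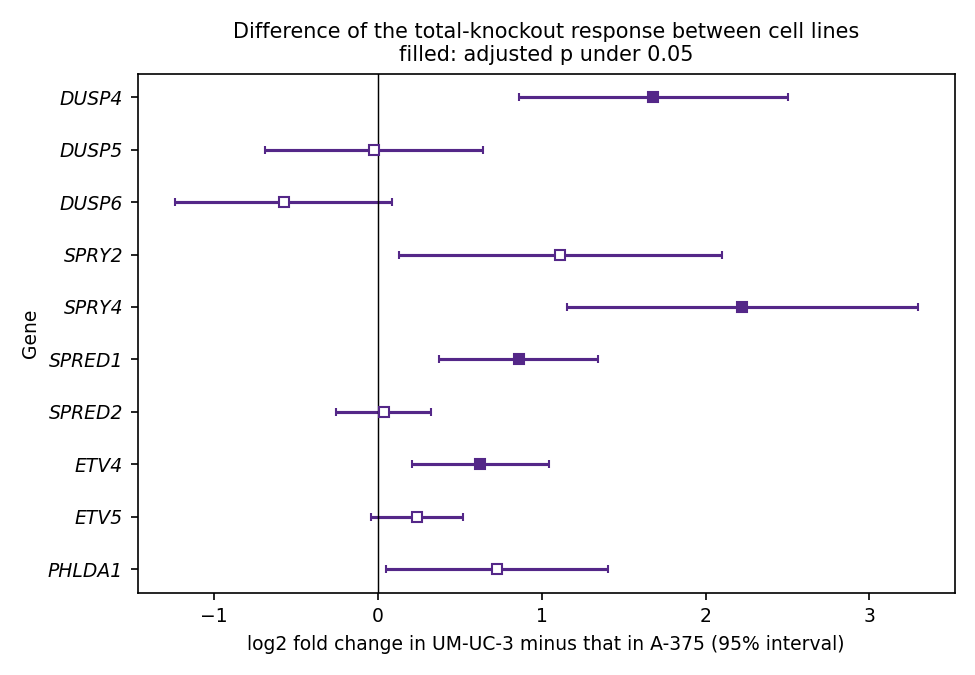
Log2 fold change in UM-UC-3 minus that in A-375 on the x axis for each of the 10 genes on the y axis, with 95% normal intervals; filled squares passed an adjusted p of 0.05. The 4 filled squares, DUSP4, SPRY4, SPRED1 and ETV4, all lie above 0, and 8 of 10 squares do.

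The 2 lines also started from different orders of level. Levels in control and knockout cells were solved from each gene's fitted fold and its deposited mean normalized count, weighted by library numbers, and divided by the longest annotated transcript. They have no spread of their own, so neighbours in an order cannot be told apart. With parental libraries as the controls, SPRY4 had the highest control level in A-375, 3150 normalized counts per kb of transcript, followed by SPRY2 at 2415 and PHLDA1 at 2223. ETV4 (1719), DUSP4 (1569) and DUSP6 (1239) came next in normalized counts per kb. ETV5 (686), SPRED2 (479), SPRED1 (345) and DUSP5 (322) had the lowest control levels per kb in A-375. In UM-UC-3 the order was different, with DUSP5 first at 2042 normalized counts per kb, then PHLDA1 (1869), ETV5 (1560) and SPRY2 (1197). DUSP6 (1064), SPRED2 (1026) and ETV4 (673) lay between, and DUSP4 (527), SPRY4 (498) and SPRED1 (174) had the lowest control levels per kb in UM-UC-3. With these controls DUSP5 was last in A-375 and first in UM-UC-3, and SPRY4 first in A-375 and next to last in UM-UC-3. With ROSA26 libraries as controls too, SPRED1 (346 normalized counts per kb) was last in A-375 and DUSP5 (350.2) next to last, PHLDA1 (2302) passed SPRY2 (2272), and the UM-UC-3 order was the same. The 2 tables were normalized separately, so their levels are compared by order and not by size. The 3 genes with the lowest UM-UC-3 control levels, SPRED1, SPRY4 and DUSP4, were among the 5 that rose there, to 321, 987 and 1436 normalized counts per kb; the level and the fold share the same control libraries, so this is a description. In A-375 the knockout level of SPRY4 was 1338 normalized counts per kb. Under that second reading the SPRY4 control level in A-375 was 2590 normalized counts per kb and that of DUSP4 in UM-UC-3 was 613.

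**Figure D3:**
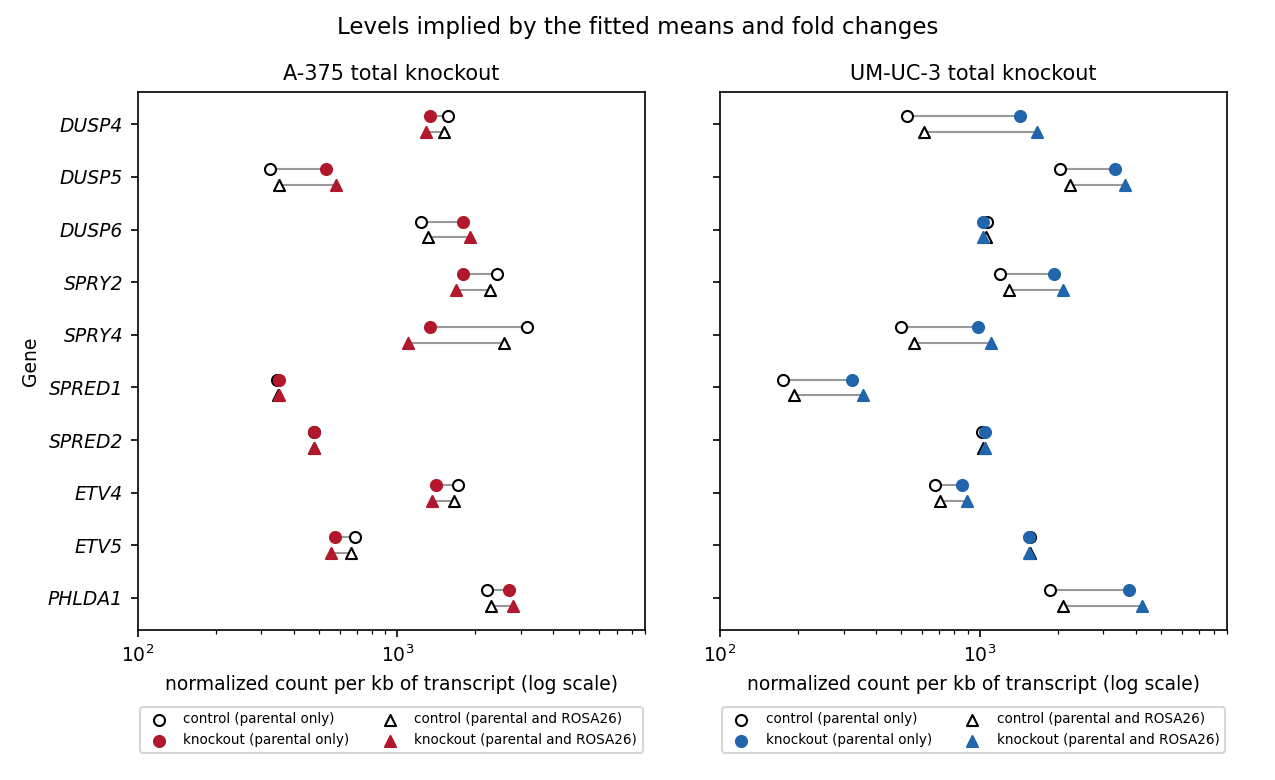
Implied control (open) and knockout (filled) level in normalized counts per kb of the longest transcript, on a log x axis, for each gene on the y axis in A-375 (left) and UM-UC-3 (right). Circles take parental libraries as the controls and triangles parental and ROSA26 libraries; lines join the 2 levels of a gene, and the longest line in A-375 is that of SPRY4, from 3150 to 1338.

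Other genes of the pathway came from 4 lists of 64 genes. In A-375, 62 were in the table, of which 1 rose and 3 fell. In UM-UC-3, 59 were in the table, of which 7 rose and 5 fell. In the long-form knockout 0 of 62 rose and 2 fell. Against the 10.8%, 31.1% and 0.904% of all genes called, the share called was lower, lower and higher in turn, a reading with no test.

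Among 18 other feedback regulators and brakes, DUSP14 rose in A-375 (1.03 ± 0.30 on the log2 scale, adjusted p 0.0118, authors' deposited table). In the same line NF1, the neurofibromin gene, changed by -0.65 ± 0.12 (adjusted p 1.71e-05) and DUSP9, another phosphatase of ERK, by -1.73 ± 0.53 (adjusted p 0.0179) on the log2 scale in the authors' deposited table. IL17RD, a membrane inhibitor of receptor signalling to ERK, rose in UM-UC-3 by 0.83 ± 0.19 (adjusted p 0.000208, authors' deposited table). NF1 changed by -0.24 ± 0.09 (adjusted p 0.0319) and PEBP1, an inhibitor of RAF, by -0.43 ± 0.12 (adjusted p 0.00209) in UM-UC-3 in the authors' deposited table. NF1 therefore fell in both lines. In the long-form knockout DUSP1, an early-response phosphatase, changed by -0.61 ± 0.15 (adjusted p 0.00912, authors' deposited table). The list medians were 0.13, 0.10 and -0.06 in the A-375 total, UM-UC-3 and long-form comparisons.

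Of 15 other ERK output genes, 0 were called in A-375 by the authors' DESeq2 test (2 at an unadjusted p under 0.05). In UM-UC-3 the ETS gene ETV1 (0.89 ± 0.33, adjusted p 0.0257), the cytokine LIF (0.87 ± 0.20, adjusted p 0.00016) and uridine phosphorylase UPP1 (1.13 ± 0.40, adjusted p 0.0176) rose on the log2 scale in the authors' deposited table. FOSL1, a subunit of AP-1, changed by -0.38 ± 0.14 there (adjusted p 0.0248, authors' deposited table). In the long-form knockout IER3 changed by -1.69 ± 0.36 (adjusted p 0.00126, authors' deposited table), on a mean normalized count of 85.8. The list medians were 0.26, 0.23 and -0.18 in the A-375 total, UM-UC-3 and long-form comparisons.

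Receptors and adaptors (18 genes) had 0 calls by the authors' DESeq2 test in the A-375 total knockout (2 at an unadjusted p under 0.05) and in the long-form knockout (2 likewise). In UM-UC-3 the receptor FGFR4 (0.71 ± 0.24, adjusted p 0.0149) and the adaptor SHC1 (0.50 ± 0.14, adjusted p 0.00252) rose on the log2 scale in the authors' deposited table. The receptor AXL changed by -0.65 ± 0.10 (adjusted p 3.34e-08) and the adaptor GRB2 by -0.37 ± 0.09 (adjusted p 0.000931) in UM-UC-3 in the authors' deposited table. Of 13 genes of the cascade itself, 1 was called in UM-UC-3, BRAF, which rose by 0.49 ± 0.11 on the log2 scale (adjusted p 0.000116, authors' deposited table). The MEK and ERK genes of this list passed in none of the 3 comparisons.

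The difference between the lines was called for 4 of the 59 pathway genes tested, against 10.4% of all 12640 genes, a reading with no test. Among them BRAF had the higher signed log2 change in UM-UC-3 (difference 0.79 ± 0.21, adjusted p 0.00484). DUSP14 (-1.25 ± 0.43, adjusted p 0.0415) and PEBP1 (-0.73 ± 0.17, adjusted p 0.00119) had the higher signed log2 change in A-375. PEBP1 changed by 0.30 in A-375, where it was not called, and by -0.43 in UM-UC-3, where it was.

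**Figure D4:**
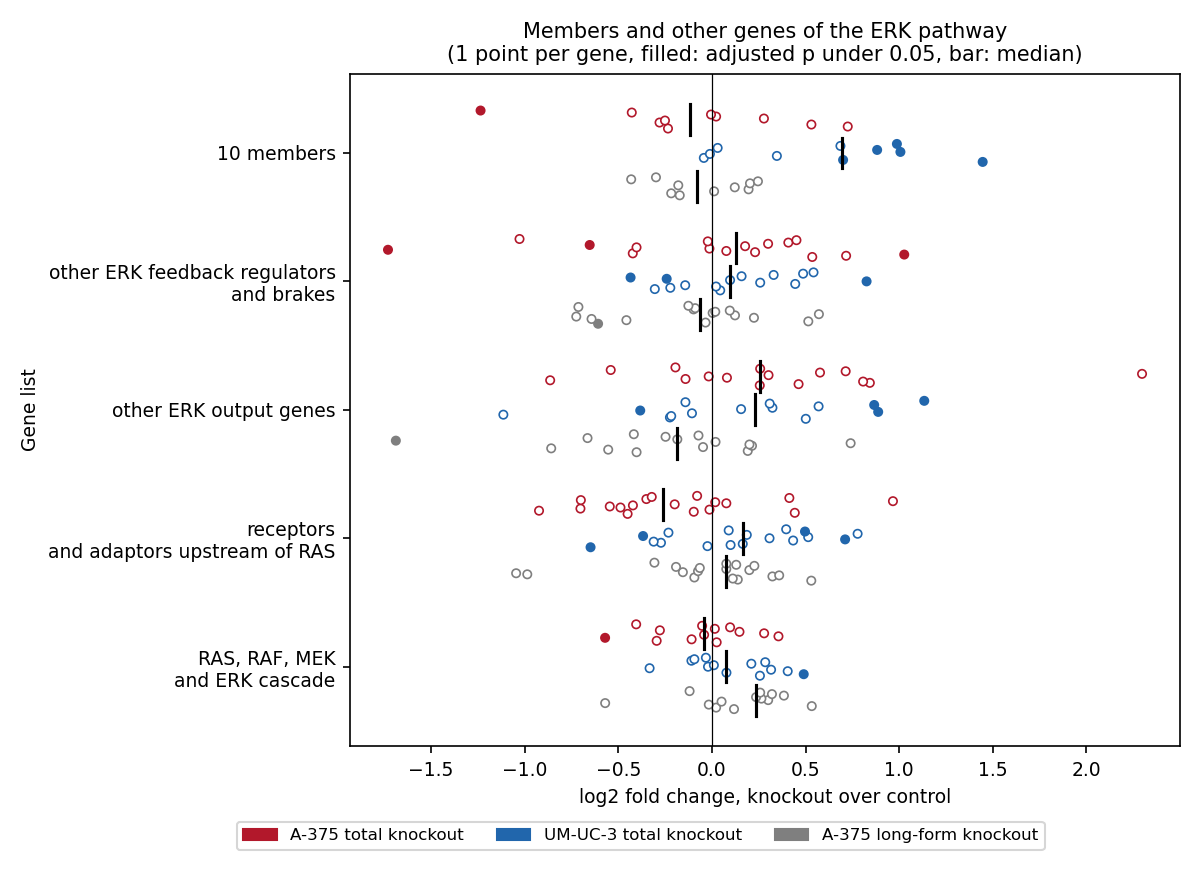
Log2 fold change of knockout over control on the x axis, 1 point per gene, for the 10 members and the 4 other pathway lists on the y axis; colours mark the comparison, filled points passed an adjusted p of 0.05 and black bars are list medians. The members' median in UM-UC-3, 0.69, lies to the right of the medians of the other lists there.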

How the data were processed

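Per the submitters' processing notes, HISAT2, SAMtools, StringTie and DESeq2 were used with build hg38; no version, annotation, gene filter or design formula was found there. Libraries were made with a stranded poly(A) kit, per the labels' protocols. The authors deposited, per table, a signal (the mean over libraries of counts divided by size factors), the log2 fold change with its standard error, the Wald statistic (a score) and p-values, adjusted p-values and q-values. Only these fitted values were used, so the depth of each library is unknown.

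The members and lists were chosen with earlier results of these data known. Genes counted as called had a deposited adjusted p below 0.05. Intervals are the deposited log2 change ± the normal 95% quantile times its SE, also given as folds. Differences between lines were tested with a normal p on the difference over the root of the summed squared SEs, adjusted by Benjamini-Hochberg across all genes whose mean reached 10 in each table. The scripts were tested on simulated data. Named genes were all members, up to 4 called genes each way per other list and table, and GABPB1, GABPA and GABPB2 entries; DHX8, DGKG and SPRY4-IT1 were chosen after their values were seen. The values of 1 called pathway gene are not reported here. GABPA changed by 0.81 ± 0.22, 1.43 ± 0.19 and 0.28 ± 0.17, and GABPB2 by 1.81 ± 0.32, 2.49 ± 0.20 and 0.29 ± 0.26, in the A-375 total, UM-UC-3 and long-form tables the authors deposited. Places and transcript lengths came from GENCODE release 29 on GRCh38 and promoters from RefSeq. Python 3.11.15, pandas 2.3.3 and SciPy 1.17.1 were used.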

Additional observations from a re-analysis of the deposited data

Results flagged for a closer look

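The total-knockout response of 4 members differed between the cell lines, by a test of the difference of log2 fold changes adjusted over 12640 genes. Of those 12640 genes, 10.4% differed by the same test and 6.32% had the higher change in UM-UC-3. The difference, UM-UC-3 minus A-375, was 2.22 for SPRY4 (-1.24 in A-375, 0.99 in UM-UC-3), 1.68 for DUSP4 (-0.23 and 1.45), 0.86 for SPRED1 (0.02 and 0.88) and 0.63 for ETV4 (-0.28 and 0.35). SPRY4 was the only one of the 4 called in both lines, with opposite signs. The difference for ETV4 was no longer called after both tables were centred (adjusted p 0.0766).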

How the results depend on the processing

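Of 150 values of single members under the alternatives run, 141 kept direction and side of the threshold. Many of these could hardly move: changing the count filter kept 40 of 40 and 10 of 10, since the lowest mean of a member was 1286. Centring, the only alternative that shifts the log2 changes, kept 35 of 40. The differences between lines were not rerun with the q-value or at 0.01. The count of members called in A-375 was 1, and 2 after centring (DUSP5 added), 2 with the q-value (DUSP5 added) and 0 at an adjusted p of 0.01 (SPRY4 lost). In UM-UC-3 the count stayed between 4 and 6, and for the long form at 0. The deposited q-value was at the median 0.405 of the adjusted p in UM-UC-3 and 0.562 in A-375, so it calls more genes of any kind. The share of all genes called with the q-value or at 0.01 is not given here. These shifts in count are therefore not read as a result about the members. Near 0, centring reversed SPRED2 in A-375 (0.048), DUSP6 in the long-form knockout (-0.0038) and the SPRED2 difference (-0.048). Pathway genes called, with alternatives chosen after seeing the data, were 2 in place of 4 in A-375 and 7 in place of 12 in UM-UC-3 at an adjusted p of 0.01, 20 in UM-UC-3 with the q-value, and 1 in place of 2 for the long form with a mean of at least 100. No paired analysis was possible because the tables hold no value per library, and for the same reason no library could be left out.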

Other observations

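SPRY4-IT1, a noncoding RNA from the SPRY4 locus chosen after its values were seen, had log2 changes with the sign of SPRY4 in each comparison and passed the test in none: -1.41 ± 0.53 in the A-375 total knockout (adjusted p 0.0638), 0.45 ± 0.45 in UM-UC-3 (adjusted p 0.479) and -1.25 ± 0.66 in the long-form knockout (adjusted p 0.477) in the authors' deposited tables. Its mean normalized counts were 73.7, 62.8 and 284, and reads may be shared with SPRY4.

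The standard errors of SPRY4 were above 92.4%, 98.2% and 96.0% of genes whose mean reached 1000 in the A-375 total, UM-UC-3 and long-form tables, while the standard errors of ETV5 were above 3.03%, 7.03% and 6.54%.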
